A study of Mus musculus with 18 samples.

Results

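Claudins are the membrane proteins that form the strands of tight junctions, and each junction takes its charge and size selectivity from the claudins it holds. In the thick ascending limb (TAL), salt uptake through the cells leaves the lumen positive, and this voltage drives cations between the cells. CLDN10 lines the pores that let sodium pass. CLDN16 and CLDN19 interact with each other and are needed for calcium and magnesium to pass, CLDN14 lowers the cation permeability of CLDN16 and rises when the calcium-sensing receptor is active, and CLDN3 tightens junctions. The 5 genes *Cldn10*, *Cldn16*, *Cldn19*, *Cldn14* and *Cldn3* were taken by name from tables of 55401 genes that hold 23 genes named *Cldn* and a number, and their levels are given here relative to each other.

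RNA was sequenced from pools of 150 to 200 tubules dissected by hand from liberase-treated kidneys, each pool from 1 mouse. All mice were described as adult males, with the strain labelled C57BL/6J, and carried *Cldn10* fl/fl. The cKO mice also carried Ksp-Cre, a Cre recombinase under the promoter of Ksp-cadherin that is active in the distal nephron and so not in TAL alone, and their littermates without Cre are called WT. Cortical limbs (CTAL) gave 5 WT and 5 cKO pools, and medullary limbs (MTAL), taken from the outer medulla's inner stripe, gave 5 WT and 3 cKO pools. Calcium deposits in the outer medulla of cKO kidneys made MTAL hard to dissect there. The study left out 2 further cKO MTAL pools for quality and 1 cKO CTAL pool whose *Cldn10* was as high as in WT, so that the cKO pools were in part chosen on *Cldn10*. WT CTAL replicate 1 has a genotype label of knock-out but a pool name of WT, and was used as WT. Its *Cldn10* level of 445.9 CPM lay among those of the other WT CTAL pools.

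Total counts ranged from 10824317 to 62339974 per pool. The thick limb markers, which include *Slc12a1* (the NKCC2 cotransporter) and *Umod*, summed to between 40495 and 72185 CPM (counts scaled to a common library size). The 6 proximal tubule markers summed to at most 68.6 CPM, and the 4 distal convoluted tubule markers to at most 97.8 CPM, of which *Pvalb* was at 0 in the cKO MTAL pools. Some pools stood apart. The 6 principal cell markers summed to 849.2 CPM in cKO MTAL replicate 20, with 551.6 CPM of *Aqp2*, and to between 56.4 and 258.3 CPM in the other pools, and none of them was at 0 in any group. The 7 tubular injury markers summed to 8163 CPM in cKO MTAL replicate 18 and to 4460 CPM in cKO CTAL replicate 2. Their sum was between 1041 and 1633 CPM in the WT pools and at least 1698 CPM in each cKO pool, so that it moved with genotype. Most of this sum is *Spp1*, at 1015 to 1613 CPM in the WT pools and at 7835 CPM in cKO MTAL replicate 18. *Xist*, a transcript of female cells, reached 6.49 to 8.76 CPM in 7 of the 18 pools and at most 0.739 CPM in the others, whereas the mice are described as male. Of the pools with *Xist*, 2 were WT CTAL, 1 was cKO CTAL, 4 were WT MTAL and 0 were cKO MTAL. In pools of tubules, fewer cells of a type and less RNA per cell cannot be told apart.

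*Cldn10* (ENSMUSG00000022132) spans chr14:118787908-118875489 of GRCm38 on the plus strand. The annotation gives it a pair of transcripts from an upstream start (of 1148 and 1031 bases) and 1 transcript of 2128 bases from a start 66824 bases downstream. The forms differ in their first coding exon, which encodes the first extracellular loop and with it the lining of the pore. CLDN10a, from the upstream start, passes anions, and CLDN10b, from the downstream start, passes cations. The coding parts of both first exons are shown because the *Cldn10* counts could stand for either pore, with the start codon in capitals (chr14:118788157-118788370 and chr14:118854990-118855209, GRCm38, plus strand).
*Cldn10*, upstream first exon: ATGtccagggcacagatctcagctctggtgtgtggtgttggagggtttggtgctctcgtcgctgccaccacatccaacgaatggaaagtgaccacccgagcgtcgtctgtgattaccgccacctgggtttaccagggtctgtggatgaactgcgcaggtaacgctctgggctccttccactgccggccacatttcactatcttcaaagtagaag
*Cldn10*, downstream first exon: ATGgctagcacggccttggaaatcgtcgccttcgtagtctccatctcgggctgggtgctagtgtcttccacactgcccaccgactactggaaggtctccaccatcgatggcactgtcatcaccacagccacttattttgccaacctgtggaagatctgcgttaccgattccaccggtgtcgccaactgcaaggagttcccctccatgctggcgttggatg

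The deposited tables hold a count and a TPM value (a level per length of transcript, on one scale for all pools) for each gene, and their quotient, scaled to the pool, gives the length of transcript behind a read. For *Cldn10* this length was between 1765 and 2077 bases (median 2000, 18 pools). It was nearer to the 2128 bases of the downstream transcript, with the CLDN10b exon, than to the 1148 bases of the longer upstream one in 18 of the 18 pools. It did not differ detectably between genotypes. The mean was 2048 ± 13.2 bases (SD, n = 3) in cKO MTAL and 1917 ± 120.8 bases (SD, n = 5) in WT MTAL (exact permutation test, two-sided, p = 0.107, adjusted p = 0.446 over 10 tests of length). In CTAL it was 2023 ± 42.9 bases in cKO and 1975 ± 29.6 bases in WT pools (n = 5 each, exact permutation test, p = 0.0952, adjusted p = 0.446). For 3 pools against 5 the smallest p of this test is 0.0357, so a test of length in MTAL could hardly pass after adjustment over 10 tests. The exons that the floxed allele removes are not given in the sources used here, so the transcript that remained in the cKO pools was not told apart from this length.

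**Figure D1:**
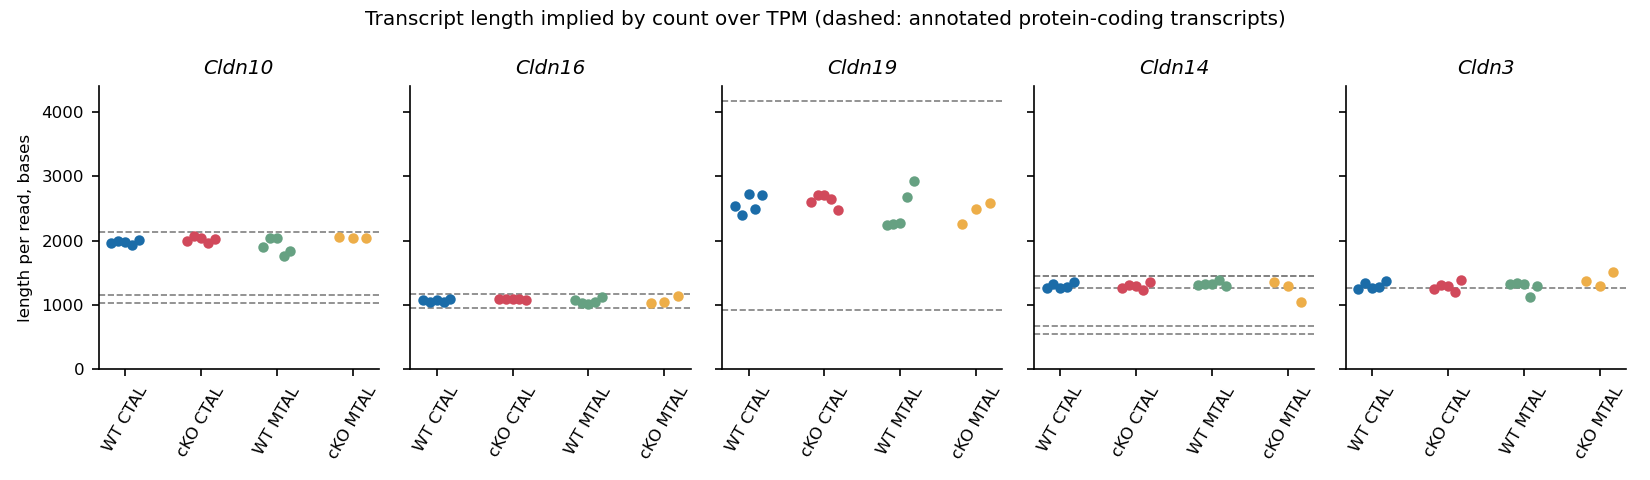
Length of transcript per read, in bases (vertical axis), for each claudin and pool (points), by group. Dashed lines are the annotated protein-coding transcripts. *Cldn10* lies near its 2128-base transcript, *Cldn19* between its annotated lengths of 924 and 4168 bases, and *Cldn3*, which has 1 transcript of 1259 bases, shows the scatter of the measure (1130 to 1506 bases).

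The length of *Cldn16* was 1016 to 1136 bases, between its annotated 950 and 1173 bases. That of *Cldn14* was 1237 to 1386 bases in 17 pools and 1045 bases in cKO MTAL replicate 20. *Cldn19* lay between its annotated 924 and 4168 bases in 18 of the 18 pools, at 2238 to 2920 bases, and so its TPM depends on how reads were divided between a short and a long transcript. In WT MTAL the SD of *Cldn19* was 12.9% of the mean in CPM and 26.0% in TPM. None of the 10 tests of length passed the threshold (exact permutation tests, smallest p = 0.0952), and those in MTAL could hardly have passed with so few pools.

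In WT pools *Cldn10* was the most abundant of the 5 claudins per length. In WT CTAL the TPM levels were 336.4 ± 55.4 for *Cldn10*, 214.4 ± 17.4 for *Cldn19*, 97.7 ± 11.9 for *Cldn16*, 19.9 ± 1.26 for *Cldn3* and 4.62 ± 1.93 for *Cldn14* (SD, n = 5). No range of neighbours in this order overlapped, and the order was the same in 5 of 5 pools. In WT MTAL the order was the same with wider gaps at the top. The TPM levels there were 498.0 ± 40.9 for *Cldn10*, 175.3 ± 45.6 for *Cldn19*, 25.8 ± 3.79 for *Cldn16*, 20.8 ± 1.36 for *Cldn3* and 2.17 ± 1.79 for *Cldn14* (SD, n = 5). *Cldn16* and *Cldn3* overlapped in range there (21.3 to 30.1 and 19.3 to 22.9 TPM), although *Cldn16* was the higher of the pair in 5 of 5 pools.

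In cKO pools *Cldn19* came first. In cKO CTAL the TPM levels were 253.3 ± 27.3 for *Cldn19*, 148.2 ± 23.7 for *Cldn16*, 123.5 ± 13.5 for *Cldn10*, 30.2 ± 11.5 for *Cldn14* and 18.5 ± 2.57 for *Cldn3* (SD, n = 5). *Cldn16* exceeded *Cldn10* in 5 of 5 of these pools and in 0 of 5 WT CTAL pools. *Cldn14*, the lowest of the 5 in each WT pool, exceeded *Cldn3* in 4 of 5. In cKO MTAL the TPM levels were 307.4 ± 37.6 for *Cldn19*, 156.2 ± 44.4 for *Cldn10*, 96.5 ± 21.3 for *Cldn16* and 26.1 ± 7.73 for *Cldn3* (SD, n = 3). *Cldn14* was at 18.7, 21.9 and 222.2 TPM in replicates 16, 18 and 20. *Cldn10*, *Cldn16*, *Cldn14* and *Cldn3* each overlapped the next in the order of their means in this group, and *Cldn16* exceeded *Cldn10* in 1 of 3 pools.

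**Figure D2:**
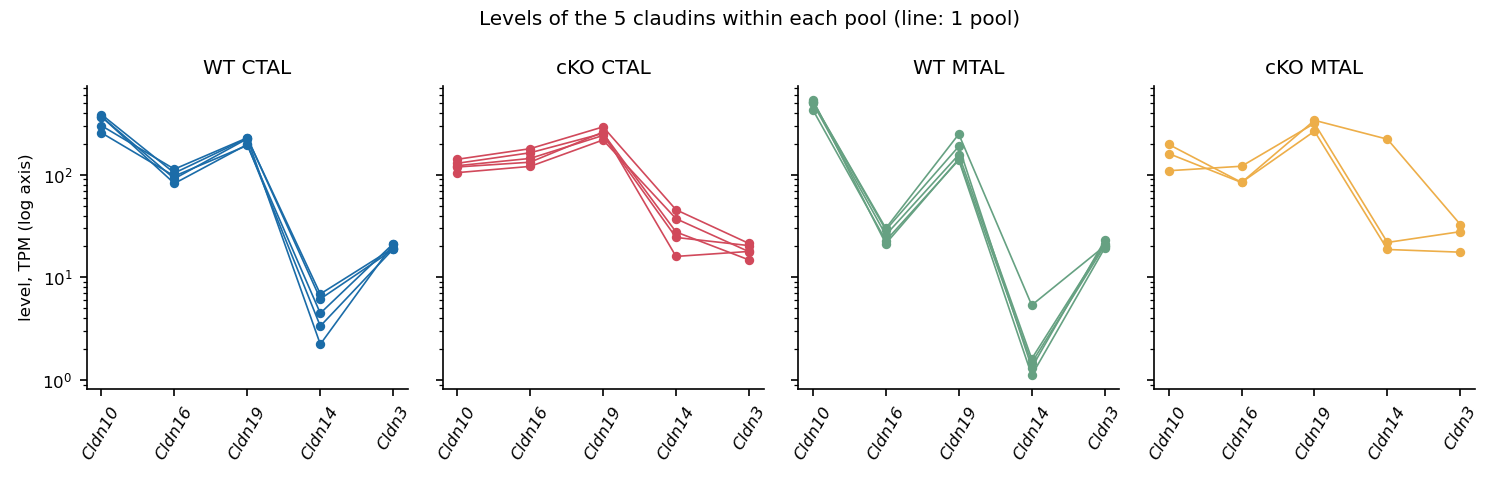
Levels of the 5 claudins within each pool, in TPM on a log axis (vertical), with 1 line for each pool and 1 panel for each group. The lines fall from left to right in WT pools except for the rise to *Cldn19* and end with *Cldn3* above *Cldn14*, whereas in cKO pools *Cldn19* is the peak.

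As a share of the summed TPM of the 5 claudins, *Cldn10* took 69.2% ± 4.28 in WT MTAL, 49.8% ± 4.61 in WT CTAL (SD, n = 5 each), 21.5% ± 0.605 in cKO CTAL (SD, n = 5) and 23.8% ± 8.72 in cKO MTAL (SD, n = 3). *Cldn19* took 24.1% ± 4.05, 32.0% ± 2.08, 44.2% ± 1.98 and 46.3% ± 6.36 in the same order of groups. *Cldn16* took 3.58% ± 0.359, 14.6% ± 2.22, 25.7% ± 1.53 and 14.9% ± 5.14. Within each segment the share of *Cldn10*, the targeted gene, did not overlap between WT and cKO pools. The summed TPM was 722.2 ± 75.2 in WT MTAL, 673.0 ± 64.0 in WT CTAL, 573.7 ± 68.0 in cKO CTAL and 673.8 ± 143.8 in cKO MTAL. The 5 claudins made up between 71.3% and 86.1% of the TPM of all 23 claudins in a pool.

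The comparison of cKO with WT MTAL asked how the loss of *Cldn10* bears on the segment where it is highest. *Cldn10* itself, the targeted gene, was at 295.9, 150.9 and 217.6 CPM in cKO MTAL replicates 16, 18 and 20, and at 774.8, 734.6, 777.2, 652.7 and 809.9 CPM in WT MTAL replicates 11, 13, 15, 17 and 19. The groups did not overlap, and transcripts remained in each cKO pool. The log2 fold change was −1.75 (SE 0.18, adjusted p = 2.92e-05 by edgeR's quasi-likelihood test with Benjamini-Hochberg adjustment over 12060 genes), a level 3.38-fold lower. *Cldn10* was lowest in replicate 18, the pool with the highest sum of injury markers, whose part in the result was not tested.

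*Cldn16* (ENSMUSG00000038148, chr16:26463135-26482765, plus strand) rose. It was at 62.9, 85.7 and 63.0 CPM in the cKO MTAL pools, in the same order of replicates, and at 24.9, 21.7, 20.2, 20.7 and 19.5 CPM in the WT MTAL pools. Even the lowest cKO pool was more than 2-fold above the highest WT pool. The log2 fold change was 1.73 (SE 0.16, adjusted p = 1.43e-05, edgeR), and it was 1.57 without replicate 18 (adjusted p = 0.000125).

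*Cldn14* (ENSMUSG00000047109, chr16:93919031-94008837, minus strand) had the largest fold change of the 5. It was at 18.4, 19.3 and 153.1 CPM in cKO MTAL and at 1.39, 5.01, 1.63, 1.32 and 1.55 CPM in WT MTAL, behind which stand 24 to 238 reads. The groups did not overlap, but replicate 20 stood far above the other cKO pools. The log2 fold change was 4.81 (SE 0.63, adjusted p = 0.000242, edgeR). Of the WT MTAL pools only replicate 13 was above 3 CPM, so the gene passed the filter of 3 CPM in 3 pools through the cKO pools. Without replicate 20 it was 3.09 (SE 0.48, adjusted p = 0.00228), and DESeq2 gave no adjusted p for *Cldn14* in this comparison. Replicate 20 also held the highest sum of principal cell markers, and its part in the level of *Cldn14* was not tested.

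*Cldn19* (ENSMUSG00000066058, chr4:119255414-119262438, plus strand) rose by less. It was at 436.0, 533.8 and 576.9 CPM in cKO MTAL and at 337.7, 393.4, 273.5, 320.5 and 339.2 CPM in WT MTAL, with no overlap. The log2 fold change was 0.64 (SE 0.13, adjusted p = 0.00763, edgeR). *Cldn3* (ENSMUSG00000070473, chr5:134986214-134987472, plus strand, where an annotated gene on the other strand overlaps it) was at 17.5, 24.5 and 32.5 CPM in cKO MTAL and between 18.8 and 24.2 CPM in WT MTAL. These ranges overlapped, and the log2 difference of 0.24 did not pass the test (95% interval −0.17 to 0.66, adjusted p = 0.532, edgeR). In all, 4 of the 5 claudins passed at an adjusted p under 0.05, where 7.01% of the 12060 genes tested did, and the CPM of 4 of the 5 did not overlap between the groups, where 14.4% of genes did not. *Cldn10*, the targeted gene, is 1 of these 4, and *Cldn14*, which passed the filter through the cKO pools, is another. The members were chosen with results of this kind known. Of the 5 thick limb markers, *Umod* was higher in cKO MTAL (log2 fold change 0.67, adjusted p = 0.00223, edgeR) and *Ptger3* was lower (−0.49, adjusted p = 0.0403), while *Slc12a1* (−0.18, adjusted p = 0.348), *Kcnj1* (0.25, adjusted p = 0.223) and *Bsnd* (0.47, adjusted p = 0.0736) did not pass. Their sum, 40495 to 49415 CPM in WT and 58247 to 64649 CPM in cKO MTAL, is mostly *Umod*. Lists of other cells moved as well. The sum of injury markers was 1041 to 1274 CPM in WT and 2035 to 8163 CPM in cKO MTAL. *Lcn2* (3.44, adjusted p = 0.00135, edgeR), *Spp1* (1.85, adjusted p = 0.00257) and *Krt18* (1.38, adjusted p = 0.00657) were called higher, and *Vcam1* (−0.55, adjusted p = 0.502) did not pass. The sum of the 5 endothelial markers was lower in cKO MTAL (92.3 to 133.8 CPM) than in WT MTAL (155.9 to 257.6 CPM), with *Cdh5* (−1.34, adjusted p = 0.000448), *Flt1* (−1.10, adjusted p = 0.00456) and *Emcn* (−1.10, adjusted p = 0.0205) called. The sums of the thin limb and proximal tubule markers overlapped, but *Slc14a2* of the first was lower (−1.90, adjusted p = 0.00415) and *Slc34a1* of the second was higher (2.39, adjusted p = 0.00657). The sum of the 5 intercalated cell markers also overlapped and was highest in cKO MTAL replicate 20 (192.8 CPM), and *Atp6v0d2* of this list was higher (1.86, adjusted p = 0.0381, edgeR). The part of any of these in the results on claudins was not tested.

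**Figure D3:**
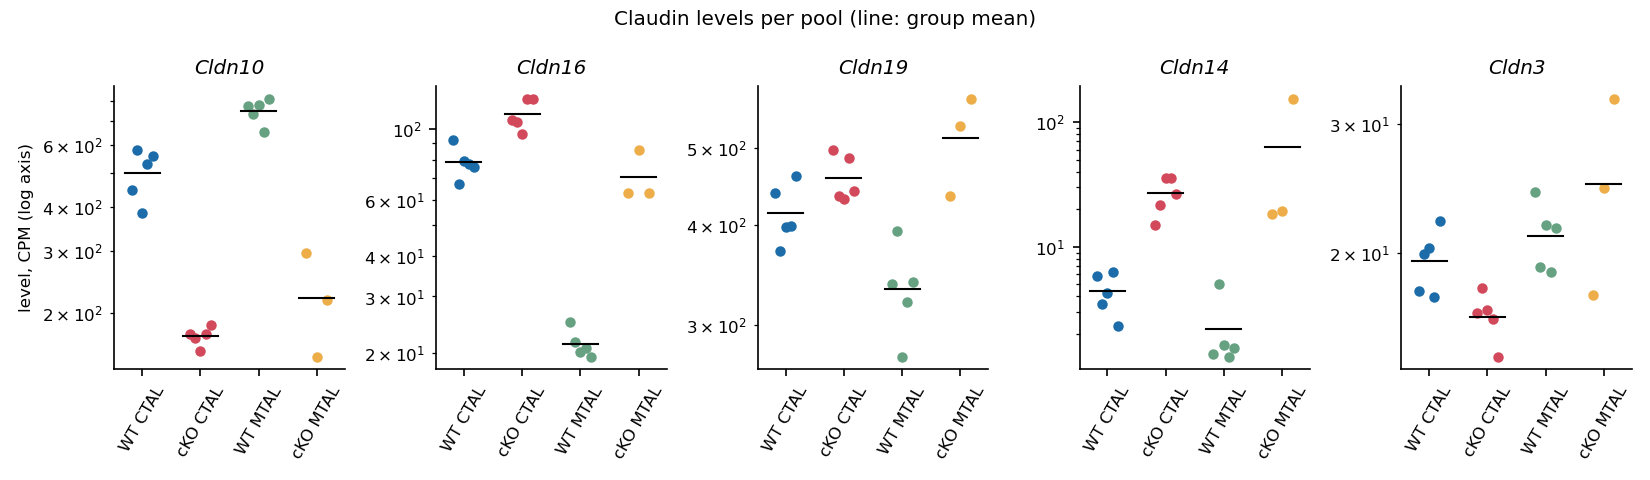
Level of each claudin in CPM (log axis) in each pool (points), by group, with the group mean as a line. *Cldn10* is lower and *Cldn16* and *Cldn14* are higher in cKO than in WT pools of either segment, *Cldn3* stays between 14.4 and 32.5 CPM, and 1 cKO MTAL pool has 153.1 CPM of *Cldn14*.

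The same comparison was made in CTAL. *Cldn10* was between 156.3 and 185.3 CPM in the 5 cKO CTAL pools and between 383.9 and 579.0 CPM in the WT pools, a log2 fold change of −1.55 (SE 0.11, adjusted p = 5.57e-06, edgeR). It had the lowest p of 11702 genes, in pools chosen in part on this gene. *Cldn16* was at 106.0, 105.0, 96.0, 123.2 and 123.7 CPM in cKO CTAL replicates 2, 4, 7, 9 and 21, and at 92.2, 67.4, 79.0, 77.5 and 76.1 CPM in WT CTAL replicates 1, 3, 8, 10 and 22. The ranges nearly met, and the log2 fold change was 0.49 (SE 0.09, adjusted p = 0.0181, edgeR). Leaving out WT CTAL replicate 10 or 22 or cKO CTAL replicate 9 or 21 ended this call, with adjusted p between 0.0517 and 0.0594.

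*Cldn14* was at 14.9, 21.5, 35.3, 35.4 and 26.7 CPM in cKO CTAL and at 5.87, 3.48, 4.30, 6.27 and 2.30 CPM in WT CTAL. The groups did not overlap. The log2 fold change was 2.57 (SE 0.28, adjusted p = 0.000441, edgeR), 5.92-fold on the linear scale. *Cldn19* differed by 0.14 on the log2 scale (95% interval −0.02 to 0.29, adjusted p = 0.533) and *Cldn3* by −0.26 (95% interval −0.48 to −0.04, adjusted p = 0.362), and neither passed. In all, 3 of the 5 claudins passed, where 1.22% of genes did, and 3 of the 5 did not overlap between the groups, where 3.1% of genes did not. The sum of thick limb markers overlapped between these groups (61491 to 67945 CPM in WT and 63610 to 72185 CPM in cKO CTAL), and that of injury markers did not (1376 to 1633 CPM and 1698 to 4460 CPM). Of the injury markers *Krt18* passed (0.86, adjusted p = 0.0232, edgeR), and *Spp1*, most of the sum, did not (0.75, adjusted p = 0.101). The intercalated cell marker *Atp6v0d2* was higher in cKO CTAL (1.66, adjusted p = 0.0152). The part of these in the results on claudins was not tested.

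The rise of *Cldn16* with the loss of *Cldn10* was larger in MTAL than in CTAL. As an interaction term in 1 fit of all 18 pools, the difference of the log2 fold changes was 1.22 (SE 0.17, adjusted p = 0.00121, edgeR), the second lowest p of 12586 genes, of which 0.286% passed. For the other claudins the difference did not pass. It was −0.23 for *Cldn10* (adjusted p = 0.656), 0.48 for *Cldn19* (adjusted p = 0.112, and 0.049 with DESeq2), 0.49 for *Cldn3* (adjusted p = 0.301) and 2.23 for *Cldn14* (adjusted p = 0.141). The value for *Cldn14* was 0.48 without cKO MTAL replicate 20 (adjusted p = 0.832), and 2.66 without replicate 18, where it passed (adjusted p = 0.0298).

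Between the WT segments, *Cldn10* and *Cldn16* went opposite ways. *Cldn10* was higher in WT MTAL than in WT CTAL (749.9 ± 60.5 and 499.2 ± 82.1 CPM, SD, n = 5 each, log2 fold change 0.59, SE 0.11, adjusted p = 0.00231, edgeR). *Cldn16* was lower (21.4 ± 2.13 and 78.4 ± 8.93 CPM, log2 fold change −1.87, SE 0.11, adjusted p = 5.27e-08), with the second lowest p of 11650 genes. Neither gene overlapped between the segments, and of the thick limb markers *Umod* was also lower in WT MTAL (−0.78, adjusted p = 4.11e-05), whereas *Slc12a1* (0.10, adjusted p = 0.505), *Ptger3* (0.23, adjusted p = 0.41), *Kcnj1* (−0.16, adjusted p = 0.407) and *Bsnd* (−0.33, adjusted p = 0.178) did not pass. The sums of the injury markers (1041 to 1274 CPM against 1376 to 1633 CPM) and of the 5 immune cell markers (86.8 to 130.8 CPM against 133.9 to 179.1 CPM) were lower in WT MTAL with no overlap, and their part was not tested. *Cldn19* was at 332.9 ± 43.0 CPM in WT MTAL and 414.0 ± 36.1 CPM in WT CTAL, and its log2 difference of −0.32 missed the threshold (adjusted p = 0.0606). Without WT MTAL replicate 13 it passed at −0.38 (adjusted p = 0.0223), and it also passed with DESeq2 (adjusted p = 0.0214), with the likelihood ratio test of edgeR (adjusted p = 0.0409) and in 1 fit of all 18 pools (adjusted p = 0.0433), so that whether 2 or 3 claudins differed between the WT segments depends on the test. *Cldn14* (log2 difference −1.003, 95% interval −1.78 to −0.22, adjusted p = 0.165) and *Cldn3* (0.11, 95% interval −0.15 to 0.37, adjusted p = 0.719) did not pass. So 2 of the 5 claudins passed, where 6.87% of genes did, and 2 of the 5 did not overlap, where 7.38% of genes did not.

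Between the cKO segments *Cldn16* alone passed. It was lower in cKO MTAL than in cKO CTAL (70.5 ± 13.1 CPM, SD, n = 3, and 110.8 ± 12.2 CPM, SD, n = 5, log2 fold change −0.62, SE 0.13, adjusted p = 0.0398, edgeR), with no overlap. The call was lost without any 1 of the 5 cKO CTAL pools and without cKO MTAL replicate 16 or 20, with adjusted p between 0.0521 and 0.139, while the log2 fold change stayed between −0.77 and −0.55. *Cldn10* (log2 difference 0.40, adjusted p = 0.245), *Cldn19* (0.20, adjusted p = 0.366), *Cldn3* (0.64, adjusted p = 0.109) and *Cldn14* (1.30, adjusted p = 0.266) did not pass. The sign for *Cldn14* turned without replicate 20, to −0.48 (adjusted p = 0.502). Without replicate 18, *Cldn10* passed at 0.62 (adjusted p = 0.0121). *Cldn3* passed with DESeq2 (adjusted p = 0.0384), with the likelihood ratio test of edgeR (adjusted p = 0.0498) and in 1 fit of all pools (adjusted p = 0.0333), and *Cldn16* did not pass with limma (adjusted p = 0.187). In no fit without 1 pool did *Cldn3* pass (log2 difference 0.39 to 0.81, adjusted p 0.0557 to 0.303, edgeR). Its highest level, 32.5 CPM, was in replicate 20, the pool with the highest sum of principal cell markers, whose part was not tested. The sum of the thin limb markers was higher in cKO MTAL (77.2 to 110.1 CPM) than in cKO CTAL (15.4 to 33.8 CPM), and its part was not tested. Here 1 of the 5 claudins passed, where 1.75% of genes did, and 1 of the 5 did not overlap, where 10.1% of genes did not.

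Set against WT CTAL, cKO MTAL had a *Cldn16* level whose difference was not detectable (70.5 ± 13.1 CPM, n = 3, and 78.4 ± 8.93 CPM, n = 5, log2 difference −0.15, 95% interval −0.41 to 0.12, adjusted p = 0.579, edgeR). The interval allows a level down to 0.41 lower on the log2 scale, and a miss does not show that the groups are alike. *Cldn10* was lower in cKO MTAL (log2 fold change −1.17, SE 0.20, adjusted p = 0.0102) and *Cldn14* higher (3.82, SE 0.60, adjusted p = 0.00557). Without replicate 20, *Cldn14* was higher by 2.09 (adjusted p = 0.012). *Cldn19* (0.32, adjusted p = 0.137) and *Cldn3* (0.36, adjusted p = 0.324) did not pass. In this comparison 2 of the 5 claudins passed, where 2.5% of genes did, and 2 of the 5 did not overlap, where 11.8% of genes did not. The sum of injury markers was higher in cKO MTAL (2035 to 8163 CPM against 1376 to 1633 CPM). The sums of endothelial (92.3 to 133.8 CPM against 142.0 to 294.8 CPM), immune cell (110.4 to 130.0 CPM against 133.9 to 179.1 CPM) and macula densa markers (1.48 to 2.43 CPM against 4.05 to 17.3 CPM) were lower. None of these sums overlapped, and their part was not tested. The 5 comparisons share groups of pools, so that their values are not independent of each other.

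**Figure D4:**
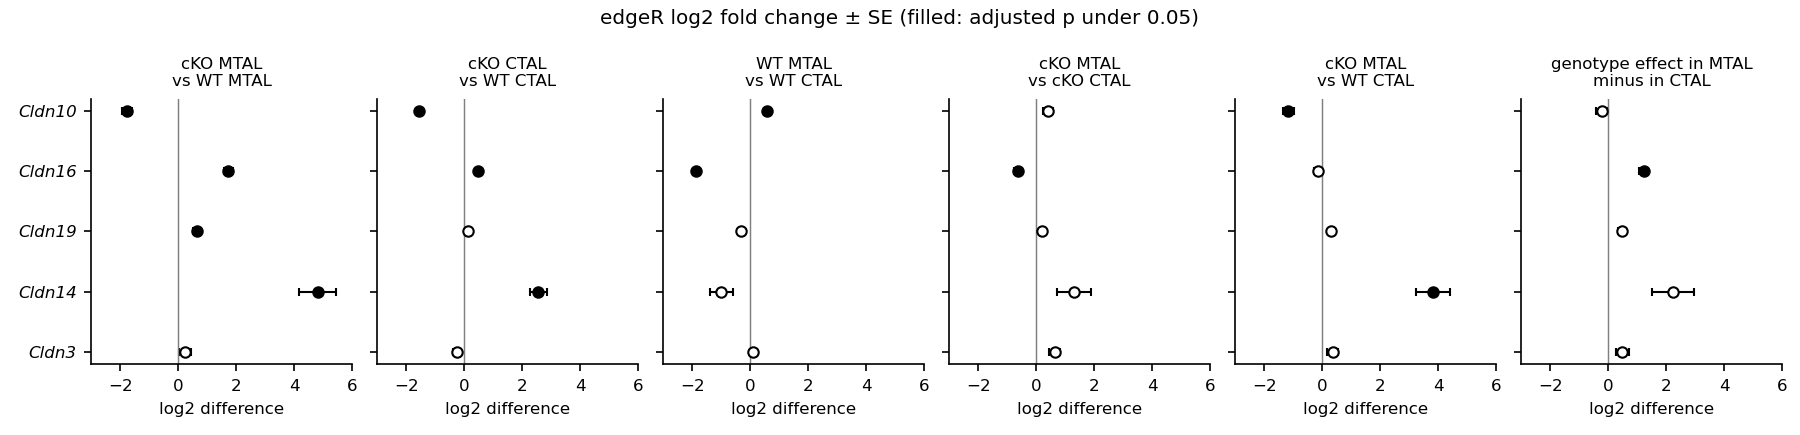
Log2 fold change from edgeR (horizontal axis) with its SE for each claudin, in 1 panel for each comparison and 1 for the difference between the segments. Filled points passed an adjusted p of 0.05. *Cldn16* sits at 1.73 in MTAL and 0.49 in CTAL, *Cldn14* has the widest errors, and *Cldn3* is open in each panel.

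For each claudin the levels could be put in order over the groups. *Cldn10* fell in the order WT MTAL, WT CTAL, cKO MTAL and cKO CTAL, of which the last pair overlapped. *Cldn16* fell in the order cKO CTAL, WT CTAL, cKO MTAL and WT MTAL, of which the middle pair overlapped. *Cldn19* fell in the order cKO MTAL, cKO CTAL, WT CTAL and WT MTAL, and each neighbour overlapped the next. For *Cldn14* the order of means was the same as for *Cldn19*, with a gap between cKO CTAL and WT CTAL and overlap between the other neighbours. Without replicate 20 the mean of *Cldn14* in cKO MTAL was 18.8 CPM, below the 26.7 CPM of cKO CTAL. The means of *Cldn3* ran from 24.8 CPM in cKO MTAL to 16.3 CPM in cKO CTAL, and each neighbour overlapped the next.

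Ratios within a pool do not depend on its depth. The TPM ratio of *Cldn16* to *Cldn10*, a divalent cation claudin to a sodium pore, was 0.052 ± 0.00742 in WT MTAL, 0.299 ± 0.0736 in WT CTAL, 1.2 ± 0.0696 in cKO CTAL (SD, n = 5 each) and 0.685 ± 0.368 in cKO MTAL (SD, n = 3). The ratio of *Cldn19* to *Cldn10* was 0.352 ± 0.0832, 0.65 ± 0.103, 2.05 ± 0.0938 and 2.11 ± 0.774 in the same groups. On the log2 scale both ratios were higher in cKO than in WT CTAL, by 2.03 and by 1.67, and lower in WT MTAL than in WT CTAL, by −2.5 and −0.901 (exact permutation tests on difference of means, two-sided, p = 0.00794 each, the smallest that 5 pools against 5 allow, adjusted p = 0.0227 over 20 tests). *Cldn10* is the targeted gene and the cKO pools were in part chosen on it, so a rise of both ratios in cKO was set by the design. In CTAL the log2 fold change of *Cldn10* itself was −1.55, that of *Cldn16* was 0.49, and that of *Cldn19*, which did not pass, was 0.14. Of the 20 tests of ratios, 7 passed after adjustment, all of 5 pools against 5, and the rises over *Cldn10* in CTAL are among them. With 3 pools against 5 the exact test cannot go below p = 0.0357, so that the adjusted p of the widest separations in MTAL was 0.051. Among these were a rise of 3.6 for *Cldn16* to *Cldn10* and of 2.55 for *Cldn19* to *Cldn10* on the log2 scale, with no overlap. Both hold the loss of the targeted gene, whose log2 fold change in MTAL was −1.75, beside 1.73 for *Cldn16* and 0.64 for *Cldn19*.

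The balance of *Cldn16* and *Cldn19*, which work as partners, also differed. The TPM ratio of *Cldn16* to *Cldn19* was 0.456 ± 0.0434 in WT CTAL, 0.584 ± 0.0538 in cKO CTAL, 0.151 ± 0.0178 in WT MTAL (SD, n = 5 each) and 0.316 ± 0.0671 in cKO MTAL (SD, n = 3). The log2 ratio was higher by 0.358 in cKO than in WT CTAL and lower by −1.6 in WT MTAL than in WT CTAL (exact permutation tests, p = 0.00794 and adjusted p = 0.0227 each). The ratio of *Cldn14* to *Cldn16*, an inhibitor to its target, rose from 0.0463 ± 0.0156 in WT CTAL to 0.205 ± 0.0755 in cKO CTAL (exact permutation test, p = 0.00794, adjusted p = 0.0227). In cKO MTAL it was 0.222, 0.18 and 2.64 in replicates 16, 18 and 20, and in WT MTAL it ran from 0.0456 to 0.178. The ratio of *Cldn3* to *Cldn19* had means between 0.0732 in cKO CTAL and 0.124 in WT MTAL, and none of its tests passed after adjustment (exact permutation tests, adjusted p from 0.051 to 0.357).

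**Figure D5:**
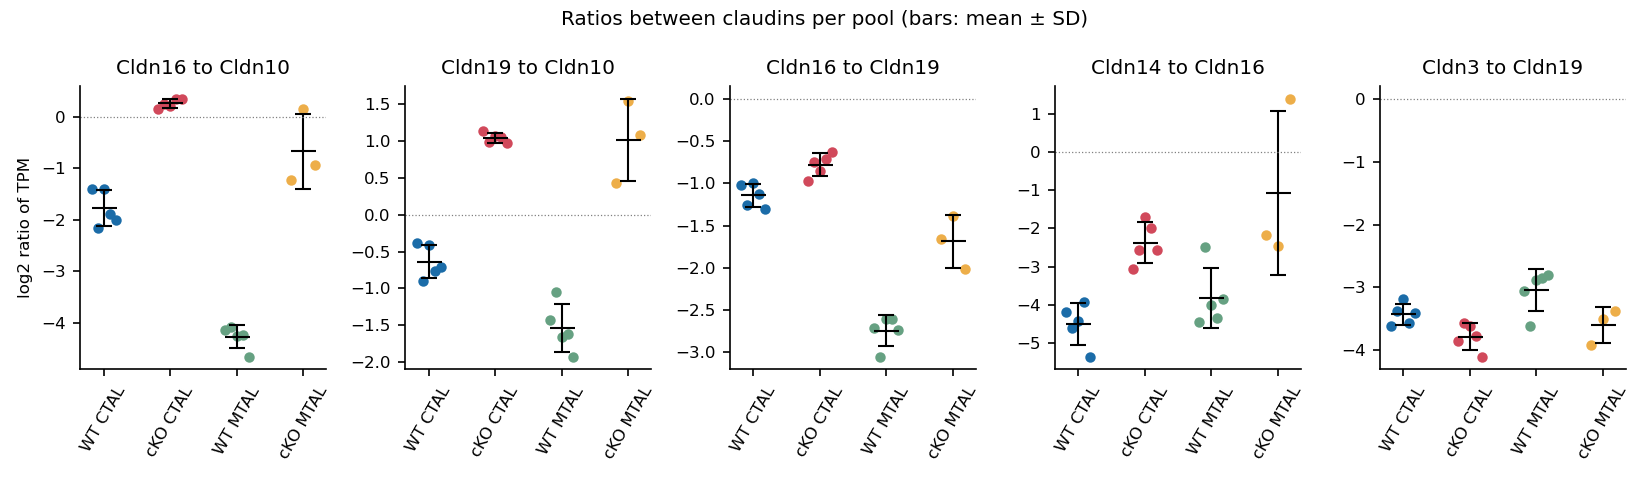
Log2 ratio of TPM (vertical axis) for 5 pairs of claudins in each pool (points), by group, with mean ± SD. The ratio of *Cldn16* to *Cldn10* lies near −4.28 in WT MTAL and at 0.256 in cKO CTAL, and the ratio of *Cldn14* to *Cldn16* spreads widest in cKO MTAL.

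*Cldn14* is known to be held down by the microRNAs miR-9 and miR-374, which the calcium-sensing receptor acts through. MicroRNAs were not measured in these poly-A libraries, so their sequences and the matches in the 206 bases after the *Cldn14* stop codon are shown as background. Of the 5 claudins this gene had the largest changes between cKO and WT pools of a segment. The seeds (bases 2 to 8, from RefSeq on GRCm38.p6) and the matched bases are in capitals.
mmu-miR-9-5p: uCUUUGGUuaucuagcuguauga
mmu-miR-374b-5p: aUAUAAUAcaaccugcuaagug
*Cldn14*, chr16:93919183-93919212, minus strand: ggatgctgggccCCAAAGgaccaatgatgg
*Cldn14*, chr16:93919074-93919103, minus strand: ggttttttattTATTATAtgtatttatgcg
The first site matches bases 2 to 7 of miR-9 and not base 8, and such a match is found in 7.79% of 18481 genes over the same length after their stop codon. The second site matches the whole seed of miR-374b, which 1.46% of the genes do. A match is a description of the sequence and not a measured site of action.

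The genes most like each claudin over the 18 pools were listed by Pearson's r of log2(CPM + 1) over 12586 genes, as a description. The pools of a group share their genotype and segment, so the r of deviations from the group means is given beside it. *Cldn14* was closest to *Gh*, the growth hormone gene (r = 0.976, and 0.914 within groups). *Gh* was at 0.764 ± 0.225 CPM in WT CTAL, 6.21 ± 1.31 in cKO CTAL, 0.459 ± 0.312 in WT MTAL (SD, n = 5 each) and 10.6 ± 8.63 in cKO MTAL (SD, n = 3), with 20.5 CPM in its highest pool. As *Cldn14* stood at 153.1 CPM in cKO MTAL replicate 20 and at 18.4 and 19.3 CPM in the others, 1 pool can weigh on its r within groups. *Wdr72* (0.912, and 0.528 within groups) and *Ttyh3* (0.908, and 0.766) followed. *Cldn16* was closest to *Emb* (0.979, and 0.575 within groups), which codes for the adhesion protein embigin, and to *C130074G19Rik* (0.978, and 0.481). *Cldn10* was closest to *Mfrp* (0.93), *Cnnm1* (0.922) and *Papss2* (0.916), with r between 0.0525 and 0.2 within groups, so that this likeness lay in the group means. *Cldn19* was closest to *Glul*, glutamine synthetase (0.902, and 0.576 within groups), *Akr1a1* (0.896, and 0.726) and *Mlf2* (0.895, and 0.647). *Cldn3* was closest to *Aqp4*, a water channel of principal cells (0.832, and 0.803 within groups), then *Rcor2* and *Ets2* (0.825 each). *Aqp4* was at 19.7 ± 26.8 CPM in cKO MTAL (SD, n = 3, range 3.17 to 50.6 CPM), so 1 pool can weigh on this r as well.

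Between the members, *Cldn10* ran against *Cldn16* (r = −0.804), *Cldn19* (−0.775) and *Cldn14* (−0.863) over the 18 pools, but by less within groups (−0.469, −0.258 and −0.0735). *Cldn16* and *Cldn19* ran together at r = 0.751, and at 0.344 within groups.

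Of the other 18 claudins, 9 were under 1 TPM on average in each group, and 4 were above 1 TPM in all 18 pools. The highest were *Cldn8*, a barrier claudin of the distal nephron (89.5 ± 8.4 TPM in WT CTAL), and *Cldn7* (49.1 TPM), both above *Cldn3* and *Cldn14* in WT CTAL. In cKO against WT MTAL 2 of 8 tested passed, where 7.01% of all genes did, both higher, with a median log2 fold change of 0.40 (median of all genes 0.00). They were *Cldn1*, which seals the paracellular path (log2 fold change 1.65, SE 0.43, adjusted p = 0.0298, edgeR), and *Cldn4* (1.80, SE 0.48, adjusted p = 0.0339). The level of *Cldn4* varied among the cKO MTAL pools (10.7 ± 5.27 CPM, SD, n = 3). Its lowest value there, 5.9 CPM, was close to the highest WT MTAL value, 5.6 CPM. Principal cell markers summed to 849.2 CPM in cKO MTAL replicate 20, and the part of this pool in the call of *Cldn4* was not tested. *Cldn1* was at 13.1 ± 2.1 CPM in cKO MTAL (SD, n = 3) and at means of 4.18 to 4.19 CPM in the other groups, and it was also higher than in cKO CTAL (1.68, adjusted p = 0.00838) and WT CTAL (1.64, adjusted p = 0.00627). In cKO against WT CTAL 0 of 7 passed in edgeR and 0 in DESeq2, with 2 at an unadjusted p under 0.05. Between the WT segments *Cldn8* alone of 6 passed, where 6.87% of all genes did, lower in MTAL (−0.49, adjusted p = 0.00346).

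Of 21 genes of divalent cation transport and its control, 20 were tested. In cKO against WT MTAL 5 were higher and 1 was lower, where 7.01% of all genes passed, with a median log2 fold change of 0.19. *Pth1r*, the parathyroid hormone receptor, rose most (log2 fold change 2.35, SE 0.19, adjusted p = 7.52e-06, edgeR), followed by *Vdr*, the vitamin D receptor (0.90, SE 0.13, adjusted p = 0.000457), and *Fxyd2*, the gamma subunit of the sodium pump, fell by 0.80 (adjusted p = 0.00292). In CTAL 1 was higher with the loss of *Cldn10*, where 1.22% of all genes passed, again *Pth1r* (0.80, SE 0.11, adjusted p = 0.00236). Between the WT segments 5 were lower and 1 was higher in MTAL, where 6.87% of all genes passed. *Pth1r* (−2.23, adjusted p = 1.13e-07) and *Casr*, the calcium-sensing receptor (−0.99, adjusted p = 4.63e-06), were the lowest in p, and *Fxyd2* was higher (0.999, adjusted p = 8.51e-05). Between the cKO segments *Rragd* (−0.60, adjusted p = 0.0133) and *Casr* (−0.47, adjusted p = 0.031) were lower and *Fxyd2* was higher (0.68, adjusted p = 0.0105) in MTAL, 3 of 20 where 1.75% of all genes passed. Against WT CTAL, 0 of the 20 passed in cKO MTAL by edgeR and 0 by DESeq2, with 2 at an unadjusted p under 0.05. The effect of genotype on *Pth1r* and *Umod* differed between the segments by the interaction test, 2 of 20 where 0.286% of all genes passed.

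Of 18 partner proteins of the tight junction, 17 were tested. In cKO against WT MTAL *F11r*, which codes for the adhesion molecule JAM-A, was higher (0.76, SE 0.20, adjusted p = 0.0315, edgeR). This is 1 of 17, a share near the 7.01% of all genes that passed, and so no result about the partners as a list. In CTAL 0 passed by edgeR and 0 by DESeq2, with 3 at an unadjusted p under 0.05. Between the WT segments 5 of 17 passed, where 6.87% of all genes did. Of these, 3 were lower in MTAL, with *Tjp3*, the scaffold ZO-3 (−1.04, adjusted p = 0.000433), and *Magi1* (−0.81, adjusted p = 0.00341) lowest in p. The 2 higher ones were *Magi3* (0.64, adjusted p = 0.00353) and *Marveld2*, tricellulin (0.57, adjusted p = 0.01). Between the cKO segments *Magi3* (0.55, adjusted p = 0.046) and *Mpdz* (1.11, adjusted p = 0.0405) were higher in MTAL, 2 of 17 where 1.75% of all genes passed.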

How the data were processed

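Estimated counts of 18 pools were made by the authors with DRAGEN on mm10 after trimming (with fastp by their methods and Trimmomatic per the labels). The TPM values were deposited by the authors beside them. Both tables hold 55401 genes, of which 55141 are in the GENCODE annotation of GRCm38 used here. The library kit kept the strand, but whether counting used it is not stated. The counts have decimals for 6.26% to 9.53% of genes and were rounded, where the design had assumed whole counts. All columns were mapped to pools by name. By the study's methods each pool came from a mouse of its own. Within groups, pairs of pools differed beyond sampling noise (chi-square per gene 16.1 to 145.0).

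The filter kept genes at 3 CPM or more in 5 pools, or in 3 for comparisons that include cKO MTAL. Tests used edgeR 4.0.16 (R 4.3.3), TMM factors and the quasi-likelihood test on the pools of each comparison, with calls at an adjusted p under 0.05 and no fold threshold. The interaction used all pools. The scripts were tested on simulated data. Ratios and lengths were compared by exact permutation of pools. Length per read is count over TPM, scaled on genes with at least 100 counts in each pool and set to bases on single-transcript genes of at least 2000 bases. The members, marker lists and context lists were chosen with earlier results of these data known. The named genes are the members, the 3 genes most like each (1 of them is not reported here), and from each list the 2 called genes lowest in p in each direction. Alternatives used DESeq2 1.42.0 and limma 3.58.1 on log2(TPM + 1) or log2(TPM + 0.1). The term for *Xist* was chosen after the data were seen.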

Additional observations from a re-analysis of the deposited data

Results flagged for a closer look

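Of 45 sets of values tested for a sample far from the others (each claudin's CPM and length per read and each ratio, in the 3 groups of 5 pools), 2 held one, and chance flags about 1 in 20. *Cldn14* was at 5.01 CPM in WT MTAL replicate 13 and between 1.32 and 1.63 CPM in the other 4 pools. The length per read of *Cldn3* was 1130 bases in WT MTAL replicate 17 and 1295 to 1344 bases in the others.

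The effect of genotype on *Cldn16* differed between the segments by an interaction test, with a log2 difference of 1.225 (MTAL minus CTAL, edgeR, adjusted p = 0.00121), and cKO pools were higher than each WT pool of their segment in 3 of 3 pools in MTAL and in 5 of 5 in CTAL.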

How the results depend on the processing

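No paired analysis was possible because the replicate numbers are unique to each pool and no number is shared between groups. Over the alternatives, no result for a single claudin turned its direction while called. Of these values, 516 stayed on their side of the threshold, 15 lost the call and 11 gained it.

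The number of genes called moved with the tool. In cKO against WT MTAL (845 genes) it was 1406 with no filter, 1359 with DESeq2, 1304 with the likelihood ratio test of edgeR, 317 and 307 with limma on log2(TPM + 1) and log2(TPM + 0.1), and 2060 in 1 fit of all 18 pools. In cKO against WT CTAL (143) it was 360, 331, 92 and 85 with DESeq2, edgeR's likelihood ratio test and both limma fits, and 89 with the *Xist* term. In WT MTAL against WT CTAL (800) the limma fits gave 452 and 449. In cKO MTAL against cKO CTAL (211) the counts were 510 with no filter, 822, 733, 68 and 58 in the order of tools above, 653 in 1 fit of all pools and 672 with the *Xist* term. In cKO MTAL against WT CTAL (300) they were 702, 826, 782, 113, 116, 742 and 515 in the same order. For the difference between segments (36) they were 79 with no filter, 353 with DESeq2, 337 with edgeR's likelihood ratio test, 7 with limma on log2(TPM + 1), 17 with WT CTAL replicate 1 counted as cKO and 21 with the *Xist* term. Leaving out 1 pool gave 457 to 968, 75 to 188, 104 to 833, 154 to 690 and 15 to 570 genes for cKO against WT MTAL, cKO against WT CTAL, the cKO segments, cKO MTAL against WT CTAL and the difference between segments. The highest counts of the last 3 came without cKO MTAL replicate 18, and the lowest of the first without cKO MTAL replicate 20 and of the second without WT CTAL replicate 10. The cause was not tested.

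In WT MTAL against WT CTAL the number of claudins called, 2, was 3 with DESeq2, the likelihood ratio test of edgeR or 1 fit of all pools, and 2 to 3 without 1 pool. Between the cKO segments the number called, 1, was 2 with DESeq2, edgeR's likelihood ratio test, 1 fit of all pools or the *Xist* term, 0 with limma, and 0 to 2 without 1 pool. In cKO MTAL against WT CTAL, 2 became 1 with DESeq2, which gives no adjusted p for *Cldn14*, and 1 with limma. For the difference between segments, 1 became 2 with DESeq2 and was 1 to 2 without 1 pool.

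Among the ratios, *Cldn3* to *Cldn19* in cKO against WT CTAL passed at −0.398 in CPM, at −0.373 with WT CTAL replicate 1 counted as cKO and at −0.401 without that pool, and ran from −0.407 to −0.275 without 1 pool. In WT MTAL against WT CTAL it ran from 0.329 to 0.534 without 1 pool and passed without WT MTAL replicate 13, and *Cldn14* to *Cldn16* passed at 0.995 with 1 TPM added, which weighs on a gene at 2.17 TPM. As shares of counts in place of TPM, *Cldn16* took 7.78%, 14.1%, 1.9% and 8.05%, *Cldn19* 40.9%, 58.4%, 29.5% and 57.8%, and *Cldn3* 1.92%, 2.09%, 1.87% and 2.74% in WT CTAL, cKO CTAL, WT MTAL and cKO MTAL, and *Cldn14* 3.42% in cKO CTAL, because counts are not divided by length. The cKO MTAL group had 3 pools and the lowest median total count (16147047).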

Other observations

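WT MTAL replicate 13 was the WT MTAL pool without *Xist*. In each of the groups with both kinds of pool, *Cldn14* was lower in the pools with *Xist* than in those without: 2.3 and 3.48 CPM against 4.3 to 6.27 CPM in WT CTAL, 14.9 CPM in 1 pool against 21.5 to 35.4 CPM in 4 in cKO CTAL, and 1.32 to 1.63 CPM in 4 pools against 5.01 CPM in 1 in WT MTAL. The split was made after the values were seen. A term for *Xist* in a fit of all 18 pools gave a log2 coefficient of −1.21 for *Cldn14* (SE 0.39, adjusted p = 0.503 over all genes, edgeR), and adjusted p of at least 0.953 for the other 4 claudins. As 4 of the 5 WT MTAL pools and 0 of the 3 cKO MTAL pools held *Xist*, the term was confounded in part with genotype in MTAL. With the term, the log2 fold change of *Cldn14* between cKO and WT was 4.06 in MTAL (adjusted p = 9.9e-05) and 2.40 in CTAL (adjusted p = 0.00434).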
